A study of Mus musculus with 8 samples.

Results

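The Rab genes encode small GTPases that direct membrane vesicles between the compartments of a cell. They were taken here as every probe set annotated to a single gene symbol made of "Rab", a number and at most a letter and a digit. This gave 95 probe sets for 50 genes, out of 22626 probe sets that are no controls and 12393 genes that could be tested. RNA of the ventral prostate was measured in FVB males at 8 weeks of age, on 4 Affymetrix arrays of wild-type tissue and 4 arrays of tissue with a transgene for polyoma virus middle T antigen (MT). Middle T is a viral oncoprotein that sits in membranes and docks signalling proteins of the host cell, and the design sets normal prostate beside the cancer induced by it. The sources used here do not name the promoter that drives the transgene, and separate animals are not stated for the arrays within a group, so p-values reflect only how far these samples differ among themselves, and that spread may be technical.

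A Rab protein cycles between an inactive form bound to GDP and an active form bound to GTP. Exchange factors load GTP at a given membrane, GTPase-activating proteins end the signal, and a lipid tail added by geranylgeranyl transferase holds the protein in the membrane, from which GDP dissociation inhibitor can extract it. Active Rabs recruit effectors such as motors, tethers and coiled-coil Golgi proteins. The secretory cells of the prostate release large amounts of protein into the gland, and the Rab3 and Rab27 proteins are known for the docking of secretory granules at the plasma membrane in exocrine cells.

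Levels are given on the log2 scale of the RMA method, and differences, each with its standard error, are those of MT less wild type in a limma fit across all 12393 genes. Where a gene had several probe sets, that with the highest mean stood for it. A gene is called changed at a Benjamini-Hochberg adjusted p under 0.05 over all genes. A level on this scale belongs to its probe set, so levels of different genes are not compared. The array medians lay between 6.21 and 6.23, and their number limits the precision. Control probe sets for bacterial transcripts, 12 in number, read from 2.57 to 3.90 and mark the background. Of the 6 measured markers of luminal prostate cells, Pbsn, Spink1, Msmb, Hoxb13 and Azgp1 had mean levels from 11.08 to 13.81 in wild type, and Ceacam10 read 5.20. In MT Pbsn was 17.8-fold lower at 9.12 and Spink1 8.19-fold lower at 10.77, while Ceacam10 was 14.2-fold higher. In bulk tissue fewer cells of a type and less RNA per cell cannot be told apart. In the same arrays 12 of 14 luminal keratin and adhesion genes were higher and 0 lower, with list means of 9.72 to 9.91 in wild type, 10.56 to 10.68 in MT. All 11 smooth muscle genes were lower (list means of 8.49 to 9.14 in wild type, 7.55 to 8.29 in MT), as were 8 of 9 fibroblast genes (8.27 to 9.02, then 7.35 to 7.87). Of 14 macrophage genes 9 were higher and 1 lower (6.59 to 7.20, then 7.37 to 7.56). Of 8 basal epithelial genes 4 were lower, among them Krt15 (-1.35) and Krt5 (-1.07), and 1 was higher, Itgb4 (1.13). Of 8 neutrophil genes 3 were higher, led by S100a8 (3.33), and 0 lower. In the T cell list 3 of 7 were higher, in the endothelial list 2 of 8 were lower, and of 8 mast cell genes 0 were called. These marker counts stand beside 19.7% of all genes called higher and 21.3% called lower. The endothelial count lies near the latter share. The part of such cell type differences in the changes of Rab genes was not tested.

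Rab genes moved in both directions and by moderate amounts. Of the 50 genes, 10 were higher and 15 lower in MT, and 25 did not pass. Over all genes tested, 19.7% were higher and 21.3% lower, 41.1% in all, against 25 of 50 Rab genes. The differences ran from -0.77 to 0.79 with a median of -0.07, beside a median of -0.01 over all genes. Their median size was 0.18 on the log2 scale, against 0.17 for all genes. A size of at least 0.5 was reached by 8 called Rab genes, where 17.7% of all genes were called with such a size. No Rab gene reached 2-fold in the probe set that stood for it, where 5.08% of all genes were called with such a change. The 4 MT values lay wholly above the wild-type values for 12 Rab genes and wholly below them for 17, beside 19.7% and 20.4% of all genes. At an adjusted p under 0.01, 7 Rab genes were higher and 9 lower, where 29.6% of all genes were called.

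**Figure D1:**
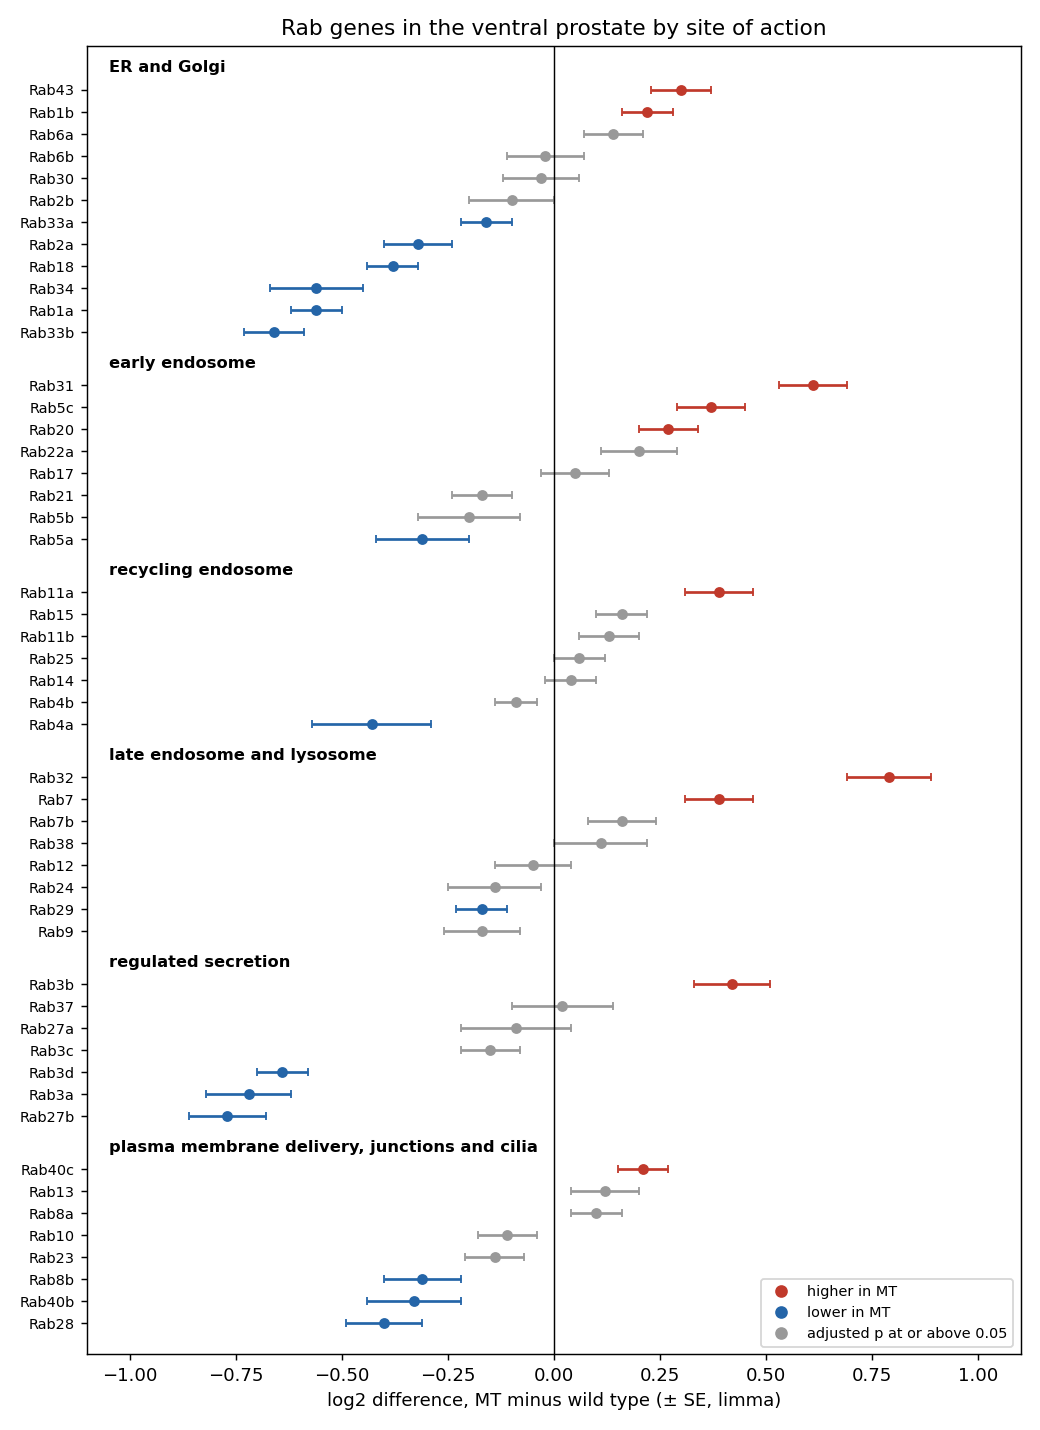
Log2 difference (MT minus wild type) of each of the 50 Rab genes, grouped by the site where the protein acts. Points are limma estimates from 4 arrays a group, bars are ± 1 standard error, and colour shows whether the adjusted p was under 0.05. The largest falls lie in the regulated secretion and the ER and Golgi groups, at -0.77 for Rab27b and -0.66 for Rab33b, and the largest rise is that of Rab32 at 0.79.

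The largest falls were those of Rab27b and Rab3a, both of regulated secretion. Of 7 genes of regulated secretion 3 fell, 1 rose and 3 did not pass, with a median of -0.15. The share called was 57.1%, where 19.7% of all genes were higher and 21.3% lower, 41.1% in all. Each group by site of action is small, and no pattern of compartments is read from these counts. Rab27b, which docks secretory granules, read 9.06, 9.15, 9.44 and 9.17 on the wild-type arrays and 8.48, 8.47, 8.53 and 8.24 on the MT arrays. Every MT value lay below every wild-type value, and the gene fell 1.71-fold (-0.77 ± 0.09, adjusted p = 6.47e-05). Rab3a, known best from synaptic vesicles, read 8.17, 8.30, 8.12 and 7.86 in wild type and 7.54, 7.41, 7.25 and 7.40 in MT. These groups were also apart, with a difference of -0.72 ± 0.10 (adjusted p = 0.000134). Of 9 genes of nerve and neuroendocrine cells 2 were lower (22.2%, near the 21.3% of all genes) and 0 higher. List means were 4.14 to 4.22 in wild type and 4.09 to 4.11 in MT. In that list Snap25 and Scg5 lay within the background on every array, and the falls were those of Uchl1 (-0.48 ± 0.09, adjusted p = 0.00147) and Chga (-0.27 ± 0.07, adjusted p = 0.00795). Uchl1 (means of 4.31 and 3.83 in wild type and MT) and Chga (4.42 and 4.16) were dim, where 14 older bacterial controls read up to 4.55. Of 6 secretory products and other markers of luminal prostate cells 4 were lower and 2 higher, with list means of 11.27 to 11.51 in wild type, 9.84 to 10.39 in MT. The part of these lists in the falls was not tested.

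Rab3d marks the granules of exocrine glands. Its values were 10.43, 10.63, 10.48 and 10.52 in wild type and 9.86, 9.83, 9.94 and 9.85 in MT, so that the groups lay apart by more than their spread. The difference was -0.64 ± 0.06, the lowest adjusted p among Rab genes (1.47e-05). All 4 of its probe sets fell, by 0.29 to 0.86 on the log2 scale. Rab3b, another member of the Rab3 group, went the opposite way: it read 5.92, 5.82, 5.81 and 5.51 in wild type and 6.18, 6.18, 6.12 and 6.27 in MT, with each MT value above each wild-type value (0.42 ± 0.09, adjusted p = 0.00272). Rab27a (-0.09 ± 0.13), which shares granule docking with Rab27b, and Rab37 (0.02 ± 0.12) and Rab3c (-0.15 ± 0.07) did not pass, at adjusted p-values of 0.6, 0.933 and 0.0863.

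Among the Rabs of the endoplasmic reticulum and Golgi, 6 of 12 fell, 2 rose and 4 did not pass, with a median of -0.13. The share called was 66.7%, beside 41.1% of all genes. Rab33b, a Golgi Rab that also takes part in autophagosome formation, read 8.14, 8.14, 8.32 and 8.16 in wild type and 7.52, 7.47, 7.66 and 7.48 in MT. The groups did not overlap, and the difference was -0.66 ± 0.07 (adjusted p = 2.33e-05). Rab1a, which tethers vesicles on their way from the endoplasmic reticulum to the Golgi, had values of 11.99, 12.10, 12.15 and 12.04 in wild type and 11.55, 11.54, 11.52 and 11.45 in MT. It fell 1.47-fold (-0.56 ± 0.06, adjusted p = 3.37e-05), again without overlap. Its other probe set, in the fit over all probe sets described further on, fell further, from 9.96 to 8.84 (-1.12 ± 0.08), a 2.17-fold difference and the only fall past 2-fold among the 95 Rab probe sets. Rab1b, a close relative of Rab1a with the same task, read 8.96, 8.90, 8.78 and 8.89 in wild type and 9.07, 9.12, 9.08 and 9.14 in MT. All of its MT values were higher, by 0.22 ± 0.06 on average (adjusted p = 0.0152).

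Because these close relatives went opposite ways, the promoter windows of Rab1a and Rab1b are shown with that of Rab3d, the fall with the lowest adjusted p, and that of Rab32, the largest rise. Each runs from 250 bases before to 50 bases after a start site as the RefSeq promoter table of build GRCm38.p6 places it, 5′ to 3′ on the strand of the gene. Capitals mark the GC box GGGCGG in either orientation, the core of the site that the general activator Sp1 binds.
Rab1a, chr11:20201162-20201461, + strand: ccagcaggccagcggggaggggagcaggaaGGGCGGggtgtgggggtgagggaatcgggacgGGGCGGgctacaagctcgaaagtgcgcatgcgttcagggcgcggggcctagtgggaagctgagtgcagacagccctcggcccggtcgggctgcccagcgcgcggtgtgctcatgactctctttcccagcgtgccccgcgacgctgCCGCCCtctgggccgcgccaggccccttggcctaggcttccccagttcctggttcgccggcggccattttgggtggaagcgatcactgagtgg
Rab1b, chr19:5106947-5107246, - strand: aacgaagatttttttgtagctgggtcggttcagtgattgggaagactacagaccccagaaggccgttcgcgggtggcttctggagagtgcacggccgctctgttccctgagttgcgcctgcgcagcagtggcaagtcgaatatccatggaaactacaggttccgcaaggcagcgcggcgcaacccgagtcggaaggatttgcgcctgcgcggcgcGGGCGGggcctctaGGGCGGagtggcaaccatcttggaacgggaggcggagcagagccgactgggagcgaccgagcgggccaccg
Rab3d, chr9:21918134-21918433, - strand: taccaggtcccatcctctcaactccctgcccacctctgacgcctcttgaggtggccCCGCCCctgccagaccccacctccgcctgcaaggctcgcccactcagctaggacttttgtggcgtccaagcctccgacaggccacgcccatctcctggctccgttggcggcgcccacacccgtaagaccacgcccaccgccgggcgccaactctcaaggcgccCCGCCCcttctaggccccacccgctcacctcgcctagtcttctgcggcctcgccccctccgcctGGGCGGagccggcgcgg
Rab32, chr10:10558158-10558457, - strand: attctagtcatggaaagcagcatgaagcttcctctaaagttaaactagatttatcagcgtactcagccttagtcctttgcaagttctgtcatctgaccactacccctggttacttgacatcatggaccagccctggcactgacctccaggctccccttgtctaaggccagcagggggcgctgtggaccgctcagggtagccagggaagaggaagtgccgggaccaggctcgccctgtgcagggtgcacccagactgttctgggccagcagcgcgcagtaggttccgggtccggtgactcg
The windows of Rab1a and Rab3d hold 3 GC boxes each, that of Rab1b holds 2 and that of Rab32 holds 0.

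Of the 50 Rab genes 42 had at least 1 window in the table, 54 windows in all, and Rab2a, Rab4a, Rab7b, Rab18, Rab27b, Rab30, Rab37 and Rab38 had none. A GC box on either strand stood in 37 of the 54 (68.5%), against 35.7% of all 32851 windows, and their median GC content was 61.2% against 52.7%. By gene, it stood in windows of 9 of the 10 genes that rose and of 9 of the 11 genes that fell and had a window. The core ACGTG of sites of the secretory factor XBP1 was in 24.1% of Rab windows and 19.6% of all, where it overlaps the E-box CACGTG. That E-box, read by TFEB and Myc, was in 11.1% of Rab windows and 7.15% of all. The CCAAT box stood in 42.6% and 37.4%. The AP-1 site TGANTCA was in 3.7% of Rab windows and 7.81% of all, the cyclic AMP response element TGACGTCA in 3.7% and 1.79%, and the E-box CATATG of the exocrine factor Mist1 in 1.85% and 3.91%. The interferon-stimulated response element was found in 0 of the 54 windows and in 3.44% of all. All motifs were searched on both strands. These are matches of letters alone, and neither a site nor a cause.

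The other falls of this compartment were no larger than that of Rab1a. Rab34, which acts at the Golgi and in the placing of lysosomes, read 7.74, 7.34, 7.63 and 7.77 in wild type and 7.08, 6.85, 7.19 and 7.15 in MT. The groups did not overlap (-0.56 ± 0.11, adjusted p = 0.00151). Rab18, which acts at the endoplasmic reticulum and on lipid droplets, had values of 10.25, 10.44, 10.27 and 10.27 in wild type and 9.94, 9.95, 9.91 and 9.91 in MT. These groups were apart as well (-0.38 ± 0.06, adjusted p = 0.000585), and both of its probe sets fell. Rab2a, a Golgi tethering Rab, had a difference of -0.32 ± 0.08 (adjusted p = 0.00503), and 6 of its 7 probe sets fell. Rab33a, with a mean of 3.92 in wild type and 3.76 in MT, close to the background, differed by -0.16 ± 0.06 (adjusted p = 0.0457). That call did not hold with the array number as a replicate block (adjusted p = 0.0736) nor without any single array except wild-type array 3, at adjusted p-values from 0.0553 to 0.115.

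Rab43 of the Golgi rose. It read 7.25, 7.06, 7.16 and 7.22 in wild type and 7.44, 7.41, 7.55 and 7.50 in MT, all MT values being higher (0.30 ± 0.07, adjusted p = 0.00347), and its probe sets averaged to a rise of 0.19. Rab6a, which serves traffic at the trans-Golgi, differed by 0.14 ± 0.07 (adjusted p = 0.135), and Rab2b by -0.10 ± 0.10 (adjusted p = 0.442). Of the 5 probe sets of Rab2b 3 did not pass and 2 were lower. These were at -0.40 ± 0.11 (adjusted p = 0.0135) and, near the background, at -0.28 ± 0.09 (adjusted p = 0.0261). Averaged over its probe sets Rab2b differed by -0.16 (adjusted p = 0.0439). For Rab6b (-0.02 ± 0.09), within the background on all 8 arrays, and Rab30 (-0.03 ± 0.09), within it on 1 wild-type array, the probe sets show little beyond background.

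**Figure D2:**
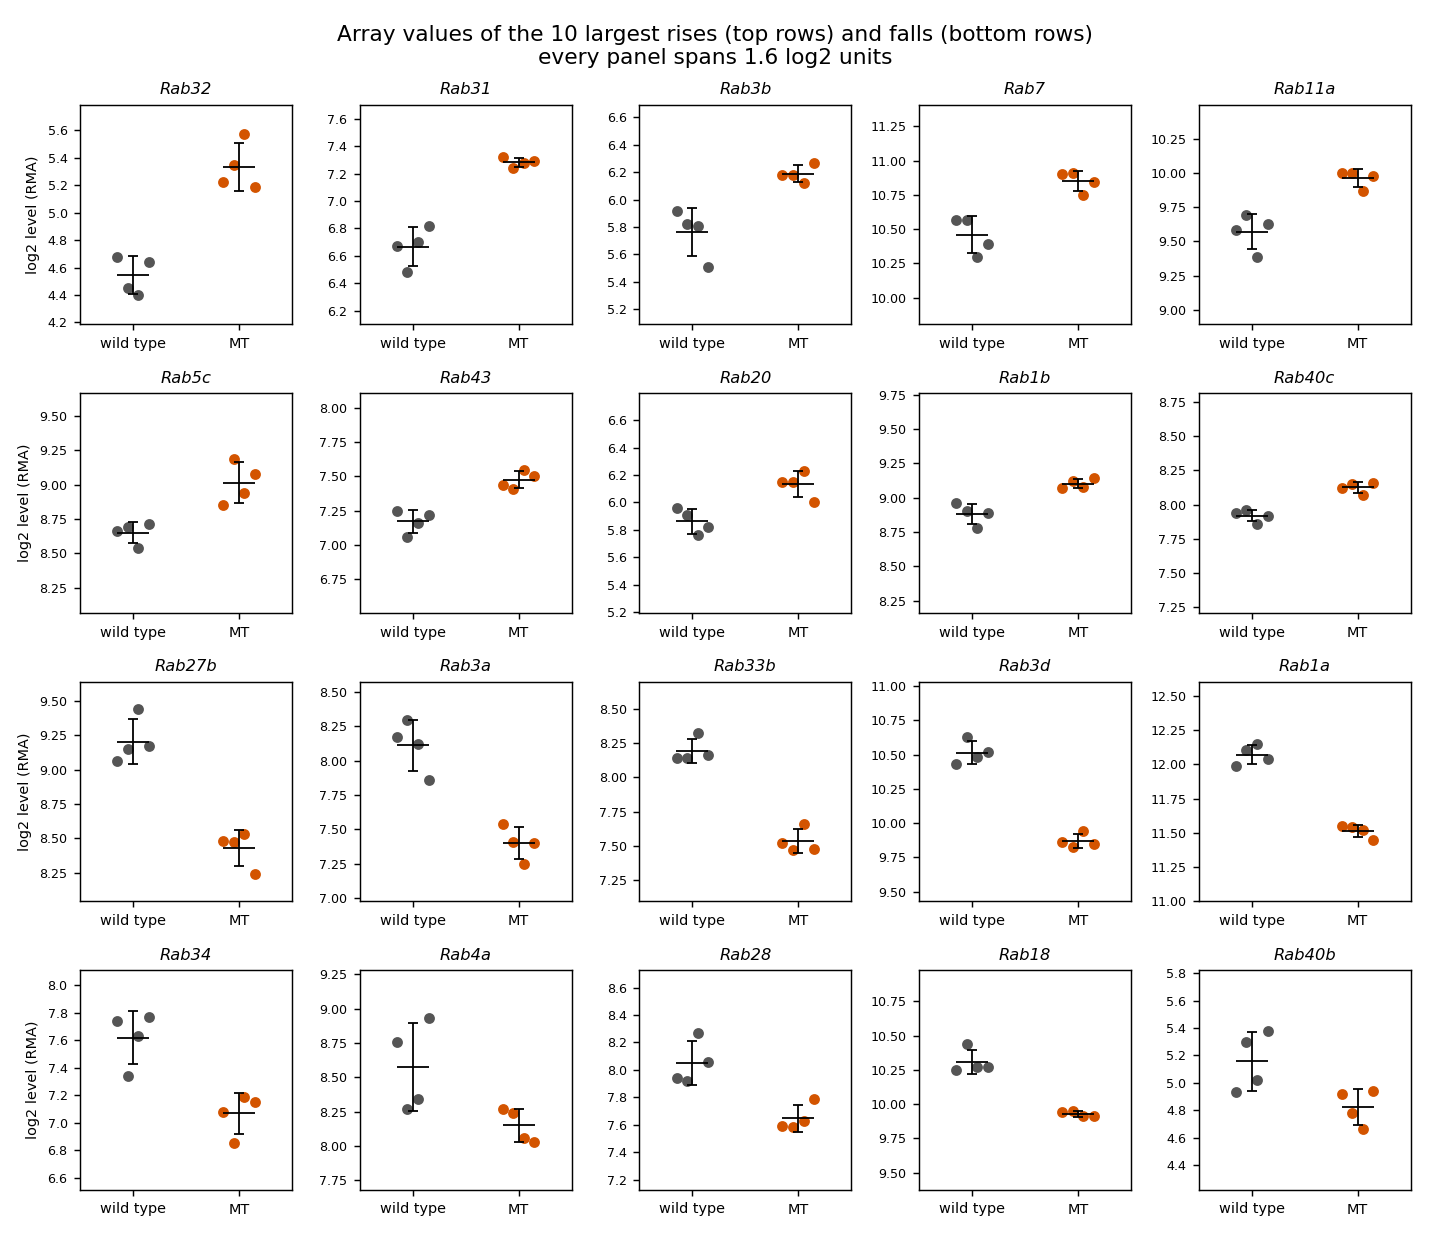
Log2 level on each of the 8 arrays for the 10 Rab genes that rose (upper rows) and the 10 that fell most (lower rows). Dots are arrays, horizontal lines are group means and bars are ± 1 SD (n = 4), and every panel spans 1.6 log2 units. Only in Rab40b do the values of the groups overlap among these 20 genes.

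Of the 8 Rabs of the early endosome 3 rose, 1 fell and 4 did not pass (median 0.12). The share called was 50%, beside 41.1% of all genes. Rab31, a relative of Rab5 that sorts cargo between the trans-Golgi and endosomes, read 6.67, 6.48, 6.70 and 6.82 in wild type and 7.32, 7.24, 7.28 and 7.29 in MT. The groups lay well apart, and the rise was 1.53-fold (0.61 ± 0.08, adjusted p = 6.69e-05). Its other probe set differed by 0.21 ± 0.09 and did not pass (adjusted p = 0.0918).

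The Rab5 proteins drive the fusion of early endosomes. Rab5c read 8.66, 8.69, 8.54 and 8.71 in wild type and 8.85, 9.19, 8.94 and 9.08 in MT, every MT value being higher (0.37 ± 0.08, adjusted p = 0.00406). Rab5a, with 9.39, 9.62, 9.84 and 9.72 in wild type and 9.06, 9.44, 9.35 and 9.47 in MT, had overlapping groups and a difference of -0.31 ± 0.11 (adjusted p = 0.0446). The Rab5a call was lost without any of wild-type arrays 2, 3 and 4 or MT arrays 1, 2 and 3 (adjusted p = 0.0521 to 0.123). It was also lost with array weights (adjusted p = 0.0681). Rab5b, the remaining gene of the trio, differed by -0.20 ± 0.12 (adjusted p = 0.232).

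Rab20, which acts on endosomes and phagosomes, read 5.96, 5.91, 5.76 and 5.82 in wild type and 6.15, 6.15, 6.23 and 6.0 in MT. All MT values were higher, by 0.27 ± 0.07 on average (adjusted p = 0.0116). Rab22a (0.20 ± 0.09), Rab17 of epithelial transcytosis (0.05 ± 0.08) and Rab21 (-0.17 ± 0.07), which handles integrins, did not pass, at adjusted p-values of 0.0899, 0.685 and 0.0778. Of the 3 probe sets of Rab22a, 1 was higher (0.39 ± 0.07, adjusted p = 0.00155). Averaged over its probe sets Rab22a differed by 0.23 (adjusted p = 0.0125), and without wild-type array 2 by 0.26 (adjusted p = 0.0233).

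Of 7 Rabs of recycling endosomes 1 rose, 1 fell and 5 did not pass (median 0.06). The share called was 28.6%, beside 41.1% of all genes. Rab11a, the main Rab of slow recycling, gave opposite answers in its 2 probe sets. The brighter one read 9.58, 9.69, 9.39 and 9.63 in wild type and 10, 10, 9.87 and 9.98 in MT, a rise of 0.39 ± 0.08 (adjusted p = 0.00158). The other read 7.08, 7.15, 7.03 and 7.16 in wild type and 6.81, 6.87, 6.87 and 6.91 in MT, a fall of -0.24 ± 0.06 (adjusted p = 0.0102). Neither pair of groups overlapped, so the direction of Rab11a depends on the probe set. Averaged over both, the difference was 0.07 (adjusted p = 0.362).

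Rab4a, the Rab of fast recycling, read 8.76, 8.27, 8.34 and 8.93 in wild type and 8.27, 8.24, 8.06 and 8.03 in MT. The groups met without overlap, wild-type array 2 and MT array 1 both rounding to 8.27 (-0.43 ± 0.14, adjusted p = 0.028). The call was lost without wild-type array 1 or 4 or MT array 3 or 4 (adjusted p = 0.067 to 0.0769), though its other probe set fell too (from 7.69 to 7.06). Rab25 (0.06 ± 0.06), a relative of Rab11 found in epithelia, and Rab11b (0.13 ± 0.07) had adjusted p-values of 0.512 and 0.147. Rab15 (0.16 ± 0.06, adjusted p = 0.0633), Rab14 (0.04 ± 0.06, adjusted p = 0.683) and Rab4b (-0.09 ± 0.05, adjusted p = 0.203) did not pass either. The 6 probe sets of Rab14 ranged from -0.06 to 0.52, and 1 of them was higher (0.52 ± 0.10, adjusted p = 0.00152). Averaged over all 6 the difference was 0.17 (adjusted p = 0.0266).

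In the late endosome and lysosome group 2 of 8 rose, 1 fell and 5 did not pass (median 0.03). The share called was 37.5%, beside 41.1% of all genes. Rab32, which serves mitochondria and the making of lysosome-related organelles, had the largest rise of all Rab genes. Its values were 4.68, 4.45, 4.40 and 4.64 in wild type and 5.22, 5.35, 5.57 and 5.19 in MT, with no overlap (0.79 ± 0.10, 1.73-fold, adjusted p = 6.76e-05). The probe set is dim: it exceeded the highest of the 12 bacterial controls on all 8 arrays, while an older control for the bacterial gene phe read from 5.55 to 5.86, above most of these values. The macrophage list, described above, had a median difference of 0.51, and its part in the rise of Rab32 was not tested.

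Rab7, which brings cargo from late endosomes to lysosomes, read 10.57, 10.57, 10.30 and 10.39 in wild type and 10.90, 10.91, 10.75 and 10.84 in MT. Each MT value was higher (0.39 ± 0.08, adjusted p = 0.00204), while its second probe set differed by 0.07 ± 0.07 (adjusted p = 0.513) and the average over both by 0.23 (adjusted p = 0.0204). Rab29 differed by -0.17 ± 0.06 (adjusted p = 0.0391), a call lost with the replicate block (adjusted p = 0.0619) and without any single array except wild-type array 3, at adjusted p-values from 0.0518 to 0.0965. Rab7b (0.16 ± 0.08), Rab38 (0.11 ± 0.11), a relative of Rab32, Rab12 (-0.05 ± 0.09), Rab24 (-0.14 ± 0.11) and Rab9 (-0.17 ± 0.09), which returns receptors from late endosomes to the Golgi, did not pass. Their adjusted p-values ran from 0.138 to 0.71. Without wild-type array 3 the difference of Rab24 was -0.26 (adjusted p = 0.00957).

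Among the Rabs of delivery to the plasma membrane, junctions and cilia, 3 of 8 fell, 1 rose and 4 did not pass (median -0.12). The share called was 50%, beside 41.1% of all genes. Rab28, found at cilia, read 7.94, 7.92, 8.27 and 8.06 in wild type and 7.59, 7.58, 7.63 and 7.79 in MT. The groups did not overlap (-0.40 ± 0.09, adjusted p = 0.00361), and both probe sets fell. Rab8b had a difference of -0.31 ± 0.09 (adjusted p = 0.0162), lost without MT array 1 (-0.25, adjusted p = 0.0502), whereas its relative Rab8a, a Rab of apical and ciliary delivery, differed by 0.10 ± 0.06 (adjusted p = 0.237). Rab10 (-0.11 ± 0.07), which delivers cargo to the basolateral surface, Rab13 of tight junctions (0.12 ± 0.08) and Rab23 of cilia (-0.14 ± 0.07) did not pass, at adjusted p-values of 0.26, 0.313 and 0.116.

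The Rab40 proteins carry a SOCS box and bind a ubiquitin ligase. Rab40b read 4.93, 5.30, 5.02 and 5.38 in wild type and 4.92, 4.78, 4.66 and 4.94 in MT, with overlap between the groups (-0.33 ± 0.11, adjusted p = 0.0278). The call was lost without wild-type array 2 or 4 or MT array 2 or 3 (adjusted p = 0.0676 to 0.0851). Its other probe set fell from 5.46 to 4.50 without overlap (-0.96 ± 0.10, adjusted p = 2.9e-05), close to 2-fold, and the average over both fell by 0.65. Rab40c, with 7.94, 7.96, 7.86 and 7.92 in wild type and 8.12, 8.15, 8.07 and 8.16 in MT, was higher on every MT array (0.21 ± 0.06, adjusted p = 0.0138). Averaged over both of its probe sets the difference was 0.17 (adjusted p = 0.113).

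Other probe sets of the same genes often fell with the chosen one. In a fit across all 20380 single-symbol probe sets, 12 of the 95 Rab probe sets were higher and 32 lower, beside 18.3% and 20.1% of all (38.4% called in either direction). Probe sets of the same gene are repeat readings and not independent, and Rab2a alone gave 6 of the falls. Several probe sets were present for 10 of the 15 genes that fell, and in 8 of these all of them fell. In the other 2, Rab2a and Rab8b, 1 probe set each did not pass, that of Rab8b at -0.11 ± 0.07 (adjusted p = 0.292). Of the 10 genes that rose 5 had several, and in 0 of the 5 did all rise: for Rab31, Rab7, Rab43 and Rab40c the other probe set did not pass, and for Rab11a it fell. No such share over all genes is given, so nothing particular to Rab genes is read from these counts.

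**Figure D3:**
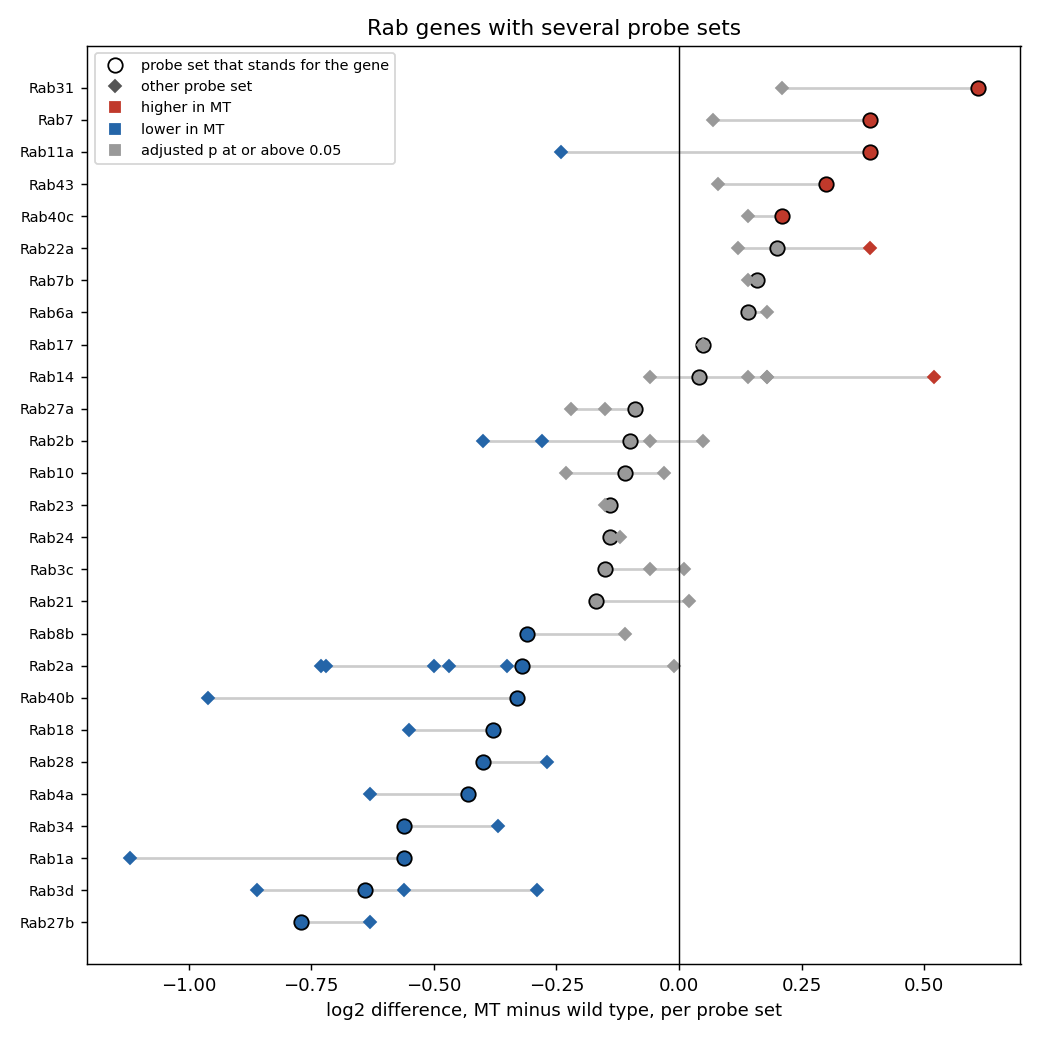
Log2 difference (MT minus wild type) of every probe set of the 27 Rab genes that have several. Large outlined circles are the probe sets that stand for the gene, diamonds the others, and colour shows whether the adjusted p over all probe sets was under 0.05. Rab11a is the only gene with calls in both directions, at 0.39 and -0.24, and Rab1a reaches -1.12.

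Rab genes that share a number encode close relatives. For each of the 19 pairs in 12 such groups the log2 ratio of the pair was taken on each array and compared between groups by an exact permutation test (two-sided, 70 ways to assign the arrays, smallest p 0.0286). The ratio differed at that smallest p in 12 pairs (adjusted p = 0.0452 over the 19), which means that the MT and wild-type ratios did not overlap. Such a shift is common on these arrays: over all pairs of the genes tested 45.2% had ratios that did not overlap, and over all 1225 pairs of Rab genes 49.9% did, and nothing particular to relatives is read from the count. Pairs that share a gene are not independent. In 5 pairs both genes were called in opposite directions.

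Since each ratio is set between different probe sets, its value on an array has no meaning of its own, and only its shift between the groups is read. The log2 ratio of Rab3a to Rab3b was 2.25, 2.48, 2.31 and 2.35 on the wild-type arrays and 1.37, 1.23, 1.13 and 1.13 on the MT arrays, a shift of -1.14 and the largest in size. That of Rab3b to Rab3d shifted by 1.06, while that of Rab3a to Rab3d, which fell together, shifted by -0.08 (exact permutation p = 0.514). The log2 ratio of Rab1a to Rab1b was 3.02, 3.20, 3.37 and 3.15 in wild type and 2.48, 2.43, 2.43 and 2.31 in MT, a shift of -0.77. That of Rab5a to Rab5c went from 0.73, 0.92, 1.31 and 1.02 to 0.21, 0.24, 0.41 and 0.39, a shift of -0.68. The ratio of Rab40b to Rab40c shifted by -0.54, from a mean of -2.76 to -3.30. In each of these pairs except Rab3a and Rab3d the wild-type and MT ratios lie apart, although Rab5a and Rab40b taken alone overlapped between groups.

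The other ratios at the smallest p were those of Rab27a to Rab27b (0.68), Rab33a to Rab33b (0.50), Rab8a to Rab8b (0.41), Rab11a to Rab11b (0.26), Rab3a to Rab3c (-0.57), Rab3b to Rab3c (0.57) and Rab3c to Rab3d (0.49). Of the 12 pairs 5 hold a dim member, Rab33a (means of 3.92 and 3.76 in wild type and MT), Rab3c (4.10 and 3.95) or Rab27a (4.51 and 4.42), near controls that read up to 3.90 or, in 14 older ones, up to 4.55. A fall of such a probe set can hardly be seen, and these 5 shifts rest mainly on the brighter gene. That of Rab11a rests on the probe set chosen for it. For Rab2a and Rab2b (exact permutation p = 0.2), Rab4a and Rab4b (p = 0.143), Rab5a and Rab5b (p = 0.6), Rab5b and Rab5c (p = 0.0571), Rab6a and Rab6b (p = 0.143) and Rab7 and Rab7b (p = 0.143) the ratios overlapped between groups.

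**Figure D4:**
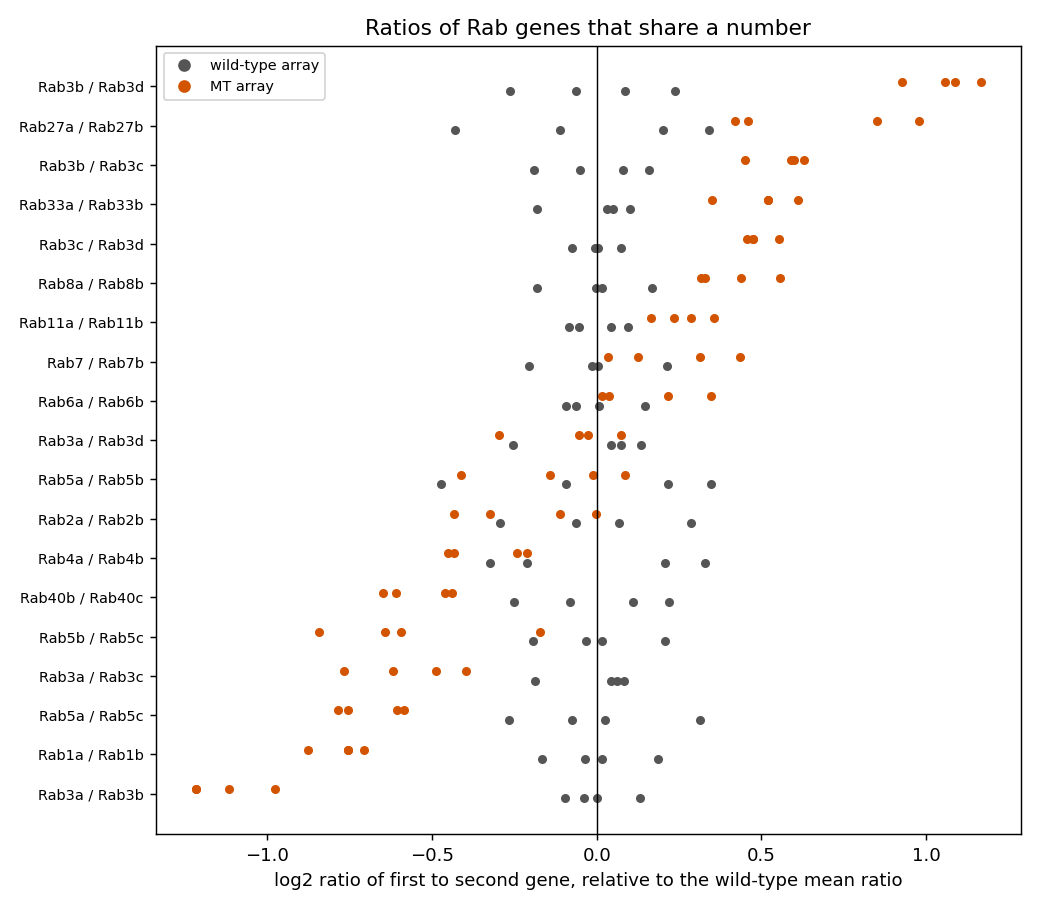
Log2 ratio of the first to the second gene of each of the 19 pairs of Rab genes that share a number, on each array, relative to the mean ratio of the 4 wild-type arrays. Grey dots are wild-type arrays and orange dots MT arrays. The MT ratios lie furthest to the left for Rab3a and Rab3b, around -1.14, and furthest to the right for Rab3b and Rab3d, around 1.06.

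The proteins that load, tether and switch Rabs also moved both ways, and their counts stand beside the 41.1% of all genes that were called. The share called was 42.9% for prenylation and recycling, 52.6% for exchange factors, 65% for GTPase-activating proteins, 51.5% for effectors, 50% for HOPS and CORVET and 5 of 5 for the exocyst. Of 7 measured genes of prenylation and recycling 3 fell, 0 rose and 4 did not pass (median -0.09). Rabac1, a membrane factor that binds prenylated Rabs, fell by 0.68 on the log2 scale (SE 0.06, adjusted p = 8.62e-06). The geranylgeranyl transferase subunit Rabggtb (-0.33 ± 0.09) and the Rab escort protein Chm (-0.31 ± 0.07) fell with it, while the GDP dissociation inhibitor Gdi2 differed by 0.09 ± 0.06 (adjusted p = 0.267). Of 19 exchange factors 6 rose, 4 fell and 9 did not pass (median 0.04). Rin2, which activates Rab5, rose by 0.60 ± 0.08, Dennd5a by 0.53 ± 0.07 and Hps4, part of the exchange factor for Rab32 and Rab38, by 0.44 ± 0.08. Hps1, the other subunit of that factor, was lower (-0.25 ± 0.09, adjusted p = 0.0454), with overlap between the groups. Dennd2d was 0.42 ± 0.10 higher (adjusted p = 0.00562), but 0.09 averaged over its probe sets (adjusted p = 0.466).

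Of 20 GTPase-activating proteins 6 rose, 7 fell and 7 did not pass (median -0.07). The largest changes were falls, in Tbc1d23 (-0.76 ± 0.07), Tbc1d15 (-0.65 ± 0.08), Tbc1d19 (-0.59 ± 0.08) and Sgsm3 (-0.55 ± 0.08), with adjusted p-values from 1.03e-05 to 0.000252. Tbc1d15 acts on Rab7. Tbc1d23 lacks the catalytic residues of the family and serves as a tether at the trans-Golgi. Among 33 effectors 12 fell, 5 rose and 16 did not pass (median -0.08). Rab11fip5, which binds Rab11, read 6.76, 6.89, 7.01 and 7.26 in wild type and 5.53, 5.49, 5.52 and 5.57 in MT. It fell 2.74-fold (-1.45 ± 0.10, adjusted p = 6.63e-07) with no overlap. Uso1, the tether p115 that Rab1 recruits, read 11.03, 11.10, 11.03 and 10.97 in wild type and 9.93, 9.92, 9.77 and 9.80 in MT. Its fall of 2.26-fold (-1.18 ± 0.06, adjusted p = 1.75e-07) had the same direction as that of Rab1a and the opposite one to that of Rab1b.

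Bicd2, the dynein adaptor of Rab6, rose by 0.84 ± 0.09 in its brightest probe set and by 0.46 averaged over its probe sets. Kif20a, a kinesin that binds Rab6 and is known mainly for its part in mitosis, read 3.46, 3.71, 3.68 and 3.32 in wild type and 4.23, 4.49, 4.06 and 4.56 in MT (adjusted p = 0.000329). All 4 wild-type values lay within the 12 background controls, against which it was at least 1.59-fold higher in MT. The highest of the 14 older controls differed between arrays, from 3.99 to 4.55. Against the highest on its own array, 1 MT value was within the background too, and no bound is given. Of 5 measured subunits of the exocyst, which tethers vesicles at the plasma membrane, 3 fell and 2 rose (median -0.37). Exoc7 (-0.45 ± 0.06), Exoc8 (-0.44 ± 0.09) and Exoc6 (-0.37 ± 0.07) were the falls, of which that of Exoc6 was -0.13 averaged over its probe sets (adjusted p = 0.0645), while Exoc1 rose by 0.39 ± 0.10 and Exoc4 by 0.29 ± 0.07. Of 6 measured genes on the list of HOPS and CORVET tethers, complexes that act with Rab7 and Rab5, 2 rose, 1 fell and 3 did not pass (median 0.12). The fall was that of Vps33b (-1.06 ± 0.07, 2.09-fold, adjusted p = 7.49e-07), a relative of the HOPS subunit Vps33a that works mainly in another complex. Vps16 rose by 0.33 ± 0.09 and Vps18 by 0.23 ± 0.07 (0.35 averaged over its probe sets), the latter with adjusted p-values from 0.0522 to 0.0679 without wild-type array 3, MT array 2 or MT array 4.

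**Figure D5:**
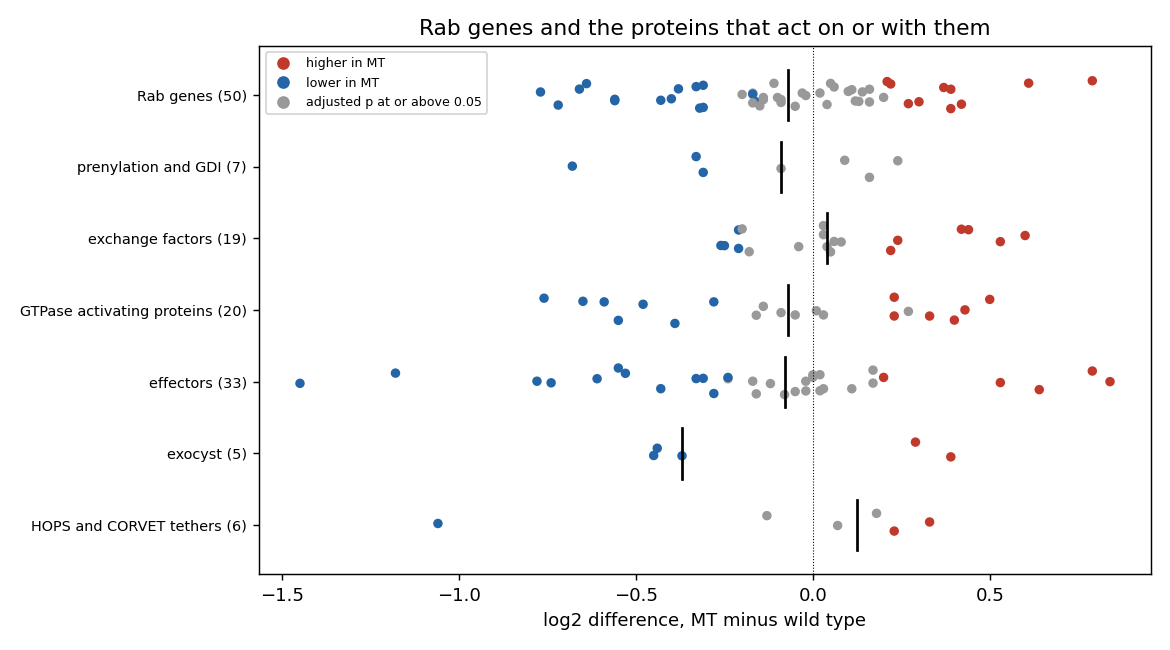
Log2 difference (MT minus wild type) of the 50 Rab genes and of the measured genes in 6 lists of proteins that act on or with Rabs. Dots are genes, coloured by whether the adjusted p was under 0.05, and vertical bars are medians. The effectors Rab11fip5 at -1.45 and Uso1 at -1.18 lie lowest, and Bicd2 at 0.84, in the probe set that stands for it, lies highest.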

How the data were processed

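All 8 arrays of ventral prostate, 4 wild-type and 4 MT, were used. The RNA was isolated with Trizol and purified over RNeasy columns, per the labels' protocols. The deposited values are log2 values from RMA (background correction, quantile normalization and one summary a probe set), which the submitters' processing notes name for the authors' processing with no version. Of 22690 probe sets 64 were controls, 20380 had a single gene symbol in the platform annotation, 691 several and 1555 none. The 50 Rab genes all matched the RefSeq gene table. No further scaling or filter was applied.

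The fit used limma 3.58.1 (lmFit, eBayes, default prior) in R 4.3.3, two-sided and without covariates. Its p-values were adjusted by Benjamini-Hochberg over 12393 genes. It was tested on simulated data, but no outcome of that test is given here and no support is drawn from it. Every Rab gene is given, array values are given for the 10 largest rises and 10 largest falls that passed and for Rab5a (added after its values were seen), and up to 4 genes with the largest changes past the threshold are named in each list of proteins of the Rab cycle. In the marker lists genes beyond the rule, Gdi2, Hps1 and Exoc4 were chosen after their values were seen. The comparison of genes that share a number and the promoter motifs were also added after the values were seen. The Rab genes and all lists were chosen with earlier results of these data known. Same-numbered arrays deviated together from their group means: the 4 correlations ran from 0.10 to 0.18, and 8 of 8 arrays correlated best with their own number, while other pairs had a mean of -0.05. The numbers were treated as pairs in a fit with a replicate block beside the main one. The labels do not state this pairing. RNA quality, as the 3′ minus 5′ log2 value of control probe sets, ran from 0.54 to 0.92 in wild type and 0.45 to 0.64 in MT for Gapdh (exact permutation p = 0.0857), and from 0.71 to 1.05 and 0.57 to 0.85 for Actb (p = 0.114). The part of RNA quality in the results was not tested.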

Additional observations from a re-analysis of the deposited data

Results flagged for a closer look

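Of the 100 sets of 4 array values, 1 for each Rab gene and group, 4 held an array that stood apart from the other 3 by Dixon's ratio, where chance gives about 1 in 20. Rab18 read 10.44 on wild-type array 2, against 10.25 to 10.27 on the others, and Rab33b read 8.32 on wild-type array 3, against 8.14 to 8.16. In MT, Rab15 read 12.05 on array 4, against 11.99 to 12, and Rab21 read 7.51 on array 1, against 7.65 to 7.68. Rab18 and Rab33b remained called as lower without the array in question.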

How the results depend on the processing

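Of the 25 called Rab genes, 23 kept their call and direction with the replicate block (10 higher and 13 lower in all), and it changed no call other than those of Rab29 and Rab33a. The exact test of ratios cannot be repeated usefully over the 4 pairs of arrays, since its smallest p is then 0.125. Leaving out single arrays gave from 10 to 12 Rab genes higher and from 10 to 15 lower. At an adjusted p under 0.01, a stricter threshold by construction, 7 were higher and 9 lower, where 29.6% of all genes were called. With probe sets of the unique type alone, which test 44 of the 50 Rab genes, Rab11a was -0.24 (adjusted p = 0.00973), Dennd2d -0.23 (adjusted p = 0.107) and Exoc6 0.10 (adjusted p = 0.279), since other probe sets then stand for them. Under median centring, renewed quantile normalization, another prior, array weights, probe set averaging and the fit of every probe set, from 23 to 25 of the 25 calls were kept. Rab15 passed under 5 alternatives, with adjusted p-values from 0.0244 to 0.0452. The number of pairs with unequal change was 12 or 13 under 4 alternatives chosen after seeing the data.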
